A study of Mus musculus with 62 samples.

Results

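The diaphragm of 5 mice that carried cachectic melanoma cells (CAC) was compared with the diaphragm of 5 mock-injected control mice (Con), all sampled 4 weeks after the injection. The mice were chosen by the treatment and the week in their labels, and they are 10 of the 62 mice of the series. RNA sequencing gave normalized transcript levels (TPM) for 47643 genes, and 13578 of them were tested, those that reached 1 TPM in 5 or more of the 62 libraries. The series follows the breathing muscle at 2, 4, 6 and 8 weeks and asks how its transcriptome changes while a tumor that causes wasting grows. A further 5 mice of 4 weeks carried non-cachectic melanoma cells (NCAC), and they are given beside the main comparison. The tumor cells came from patient-derived melanoma xenografts placed under the skin of the flank.

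All 15 mice of 4 weeks were female, and each library is the diaphragm of 1 mouse. Their age is given as 2 months, which the study's methods state for the mice when purchased, before the injection. The labels give the strain as C57BL6/J, whereas the description of the series gives NCI Ath/nude mice. The study's methods also name NCI Ath/nude mice as the hosts of the melanoma cells. For the strain of the labels, the methods name its use in the lung carcinoma model. Nude mice lack a thymus and so make few T cells. The T cell receptor gene Cd3e was listed at 0.0345 to 0.267 TPM in the Con mice and at 0 in every CAC mouse, and Cd8b1 was listed at 0 in all 10 mice. The labels name a stranded library kit and the study's methods name another kit, so whether the reads keep their strand is not settled. Skeletal actin, from Acta1, stood at 27373 to 30346 TPM in the CAC mice and at 23297 to 27912 TPM in the Con mice.

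Cachexia is the loss of muscle and fat that some tumors cause, and the diaphragm is the muscle that drives breathing. Cytokines of the interleukin 6 family bind receptors that share the subunit gp130, made from Il6st, and activate the transcription factor STAT3, which turns on acute phase proteins and its own inhibitor SOCS3. In wasting muscle the ubiquitin ligases Fbxo32 (atrogin-1) and Trim63 (MuRF1) mark proteins for the proteasome, and autophagy carries proteins and organelles to the lysosome.

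At 4 weeks a fit over all 62 mice called 3 genes in the diaphragm of the CAC mice: the STAT3 inhibitor Socs3 and the lipid carrier Apod, which rose, and the antisense transcript Dtnbos, which fell. None of them passed without CAC replicate 2, and a fit of the 15 mice of 4 weeks alone called 361 genes higher and 71 lower. Of 21 tested genes of interleukin 6 signaling, 6 were higher in all 5 CAC mice than in any Con mouse, against 4.91% of all genes. Among them were Socs3, Stat3, the oncostatin M receptor gene Osmr and the transcription factor gene Junb. Of these, only Socs3 was called in the fit of 62 mice. The acute phase genes Hp, Saa1 and Lcn2 and the metallothionein genes Mt1 and Mt2 were highest in CAC replicates 2 and 4, while most of the other acute phase genes had lower means in the CAC group. Collagen genes had lower means in the CAC group in 18 of 18 genes, and the lowest of the 10 mice was replicate 2 or 4 in all of them except Col4a1 and Col4a2, where it was replicate 3. Genes of the proteasome, the interferon response and the metalloproteases gave no call in limma fits of all 62 mice or of the 15 mice of 4 weeks.

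Socs3, which encodes the inhibitor that STAT3 induces against cytokine receptors, stood at 17.001, 36.6, 32.2, 28.8 and 25.7 TPM in CAC replicates 1 to 5 and at 5.49, 6.14, 5.91, 5.16 and 4.02 TPM in Con replicates 1 to 5. Every CAC mouse was above every Con mouse, and CAC replicate 1 was the lowest of its group. The log2 fold change was 2.16 (SE 0.38, limma adjusted p = 0.00646). Without CAC replicate 2 the change was 2.06 and the adjusted p was 0.0599, above 0.05. The gene passed in each of the other 9 fits that left out 1 of the 10 mice and in 12 of 12 other limma settings, between 3.3e-12 and 0.0499. In the NCAC mice Socs3 stood at 5.48, 4.49, 6.95, 4.14 and 5.51 TPM, within or near the Con range. Socs3 lies on the minus strand of chromosome 11, between bases 117966079 and 117970047 of GRCm38.

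Apod, which encodes apolipoprotein D, a secreted carrier of small lipids, stood at 38.4, 155, 34.5, 69.2 and 37.3 TPM in CAC replicates 1 to 5. The Con mice held 18.4, 12.5, 19.2, 14.9 and 19.1 TPM. All CAC mice were above all Con mice, with replicate 2 far above the rest and replicate 4 next. The log2 fold change was 1.69 (SE 0.31, limma adjusted p = 0.0118). The call rests on several mice: the adjusted p was 0.190 without CAC replicate 2 (log2 fold change 1.32), 0.0891 without CAC replicate 4 and 0.0520 without Con replicate 2. It was 0.0808 in a fit of the 10 mice alone and 0.0696 with a term for the replicate number, and under 0.05 in the 10 other limma settings.

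Dtnbos, a noncoding transcript read from the strand opposite to the dystrobrevin beta gene Dtnb, was scarce. It stood at 0.443, 0.135, 0.314, 0.268 and 0.849 TPM in CAC replicates 1 to 5 and at 1.31, 0.969, 1.17, 1.07 and 1.37 TPM in the Con mice. All 5 CAC mice were below all 5 Con mice, and replicate 2 was the lowest. The log2 fold change was -0.65 (SE 0.13, limma adjusted p = 0.0153) with 1 TPM added before the logarithm, and -1.49 with 0.1 TPM added, so its size at these low levels depends on that choice. Its call ended in 5 of the 10 fits that left out 1 mouse: without CAC replicates 2, 3 or 4 the adjusted p was 0.190, 0.0795 and 0.109, and without Con replicates 1 or 5 it was 0.0918 and 0.0826. It also ended in the fit of the 10 mice alone (adjusted p = 0.0747) and in the fit without 7 libraries rich in liver markers (0.0811). Dtnbos lies within the span of Dtnb, whose own symbol was below the filter, and reads of the overlap can be assigned to one gene only where the strand is kept.

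**Figure D1:**
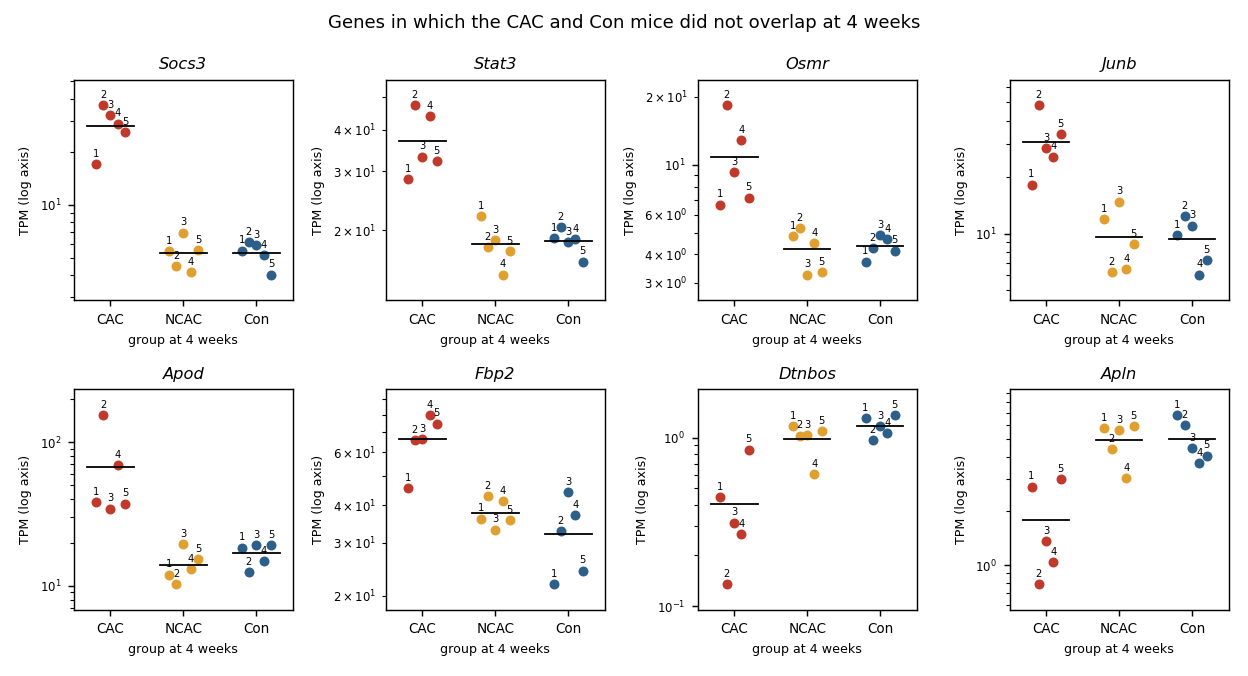
TPM on log axes for 8 genes in each CAC, NCAC and Con mouse of 4 weeks. Points are mice, numbered by replicate, black lines are group means of 5 mice, and in each of the 8 genes no CAC mouse lies within the range of the Con mice (Socs3 17.001 to 36.6 against 4.02 to 6.14 TPM).

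Across all 13578 genes, the fit over the 62 mice called 2 genes higher (0.0147%) and 1 gene lower (0.00736%) at an adjusted p under 0.05. At an unadjusted p under 0.05, 474 genes were higher (3.49%) and 254 lower (1.87%). In 667 genes every CAC mouse was above every Con mouse (4.91%), and in 262 genes every CAC mouse was below every Con mouse (1.93%). The median log2 fold change of all genes tested was 0.04. Among genes at an unadjusted p under 0.05, the share that was higher was 65.1% in TPM as deposited, 51.0% after median-ratio scaling (505 higher and 485 lower), 62.6% after quantile normalization (744 higher and 445 lower) and 32.3% in TPM recomputed without the mitochondrially encoded genes (285 higher and 598 lower). The direction of the many small differences therefore depends on the scale, while Socs3, Apod and Dtnbos kept their sign under each scaling.

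The spread that the fit shares over all 62 mice is larger than the spread of the mice of 4 weeks. The median standard error of the comparison was 0.207 in the fit of 62 mice, 0.0973 in a fit of the 15 mice of 4 weeks and 0.118 in a fit without 4 libraries of other weeks that list fewer than 17000 genes. The fit of 15 mice was planned and called 361 genes higher (2.66%) and 71 lower (0.523%), and 352 of these 432 genes had no overlap between the groups. The fit without the 4 libraries, chosen after seeing the data, called 207 genes higher (1.52%) and 44 lower (0.324%), and 190 genes were called in both of these fits. All 3 genes called in the fit of 62 mice were called in the fit of 15. The 15-mouse fit serves as a second reading for genes that the fit of 62 mice did not call, and "either fit" stands for these 2. Genes other than Socs3, Apod and Dtnbos had an adjusted p above 0.05 for CAC against Con at 4 weeks over 62 mice.

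Where the unadjusted p was under 0.01 and the groups differed by more than 1 on the log2 scale, 26 genes were higher (0.191%) and 12 lower (0.0884%). One mouse carried much of the first count. CAC replicate 2 held the most extreme level in 18 of the 26 genes, replicate 4 in 6 and replicate 3 in 2. Of the 12 lower genes, replicates 2 and 4 were most extreme in 5 each and replicate 1 in 2. Without replicate 2 the counts were 13 and 5, and 0 genes passed the adjusted threshold in either direction. Without CAC replicate 4 they were 18 and 7, with 1 gene past the adjusted threshold, higher. Without CAC replicate 1, whose levels were closest to Con among the higher genes, they were 40 and 14, and 14 genes passed the adjusted threshold higher and 2 lower. Without CAC replicate 5 the lower count was 19. Among the controls, leaving out Con replicate 2 gave 6 lower genes, Con replicate 3 gave 8 and Con replicate 5 gave 19. The 1 gene that passed lower, Dtnbos, no longer passed without CAC replicates 2, 3 or 4 or Con replicates 1 or 5, and without Con replicate 3 a count of 3 genes passed higher.

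Interleukin 6 signaling had the largest median of the 31 pathway lists in TPM as deposited, and the list of Serpina3 and metallothionein genes exceeded it after quantile normalization and without mitochondrially encoded genes. Of 25 genes of this list 21 were tested, and the ligand genes Il6, Lif and Osm stayed below the filter, at 0.0408 to 0.231 TPM for Il6 in the CAC mice and 0.0203 to 0.123 TPM in the Con mice. Lif stood at 0.0645 to 0.324 and 0.198 to 0.626 TPM and Osm at 0.0688 to 0.230 and 0.129 to 0.253 TPM, with lower means in the CAC mice. The median log2 fold change of the list was 0.38, against 0.04 for all genes tested. In the fit of 62 mice 1 of the 21 genes was called, Socs3, and 6 were higher at an unadjusted p under 0.05 (3.49% of all genes) against 0 lower. The 15-mouse fit called 5 higher (2.66% of all genes) and 0 lower. In 6 of the 21 genes all CAC mice were above all Con mice, as in 4.91% of all genes.

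Among the receptors, Osmr encodes the subunit that pairs with gp130 to bind oncostatin M. It stood at 6.65, 18.3, 9.30, 12.9 and 7.15 TPM in CAC replicates 1 to 5 and at 3.72, 4.27, 4.87, 4.67 and 4.16 TPM in the Con mice. Replicates 2 and 4 were the highest, and the lowest CAC mouse was above the highest Con mouse. The log2 fold change was 1.07 (SE 0.26), with an adjusted p of 0.111 in limma over 62 mice and 0.0204 over 15. Il6st, the gp130 gene itself and chosen for this account after its values were seen, stood at 40.97, 66.7, 49.02, 53.9 and 46.97 TPM in the CAC mice and at 39.96, 39.1, 39.2, 38.3 and 37.8 TPM in the Con mice. CAC replicate 1 lay just above the Con mice and replicate 2 furthest away (log2 fold change 0.38, 15-mouse limma adjusted p = 0.0438). The receptor genes Il6ra and Lifr, also chosen after their values were seen, overlapped between the groups: Il6ra ranged over 4.49 to 24.7 TPM in CAC and 4.52 to 15.9 TPM in Con mice, with CAC replicates 2 and 4 highest.

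The transcription factor gene Stat3, likewise chosen after its values were seen, stood at 28.4, 47.3, 33.2, 43.8 and 32.2 TPM in CAC replicates 1 to 5 and at 18.9, 20.4, 18.5, 18.8 and 16.1 TPM in the Con mice. No CAC mouse came near the Con range, and the log2 fold change was 0.94 (SE 0.36, limma adjusted p = 0.645 over 62 mice and 0.00269 over 15). The immediate early gene Junb, a partner in the AP-1 transcription factor, stood at 18.2, 48.2, 28.6, 25.7 and 33.9 TPM in the CAC mice and at 9.84, 12.4, 11.03, 6.03 and 7.22 TPM in the Con mice. All CAC mice were above all Con mice, at a log2 fold change of 1.60 (SE 0.37) and a limma adjusted p of 0.0854 over 62 mice and 0.00974 over 15. Bcl3, a regulator of NF-kappa B, ranged over 2.44 to 7.55 TPM in CAC and 1.39 to 2.37 TPM in Con mice without overlap (log2 fold change 0.86, 15-mouse limma adjusted p = 0.0630). The list's most abundant gene Ptpn11, a phosphatase in the same cascade, overlapped between the groups at 47.3 to 75.9 and 47.2 to 68.1 TPM. Cebpd, a transcription factor gene of the acute phase response, ranged over 7.07 to 42.3 TPM in CAC and 3.14 to 20.9 TPM in Con mice, with CAC replicates 2, 3 and 4 and Con replicate 5 above 20 TPM.

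Acute phase genes, which include targets of this pathway, varied from mouse to mouse. Of 18 acute phase genes 0 passed in either fit and 1 was higher at an unadjusted p under 0.05 (3.49% of all genes). The log2 fold change was positive in 7 and negative in 11, and the median was -0.50. Liver markers, given further on, were lower in the same mice. Lcn2, which encodes the iron-scavenging lipocalin 2, stood at 3.40, 31.4, 4.19, 6.61 and 4.12 TPM in CAC replicates 1 to 5 and at 1.62, 2.32, 4.01, 2.68 and 3.26 TPM in the Con mice. Replicate 2 stood apart, and the others were near or just above the Con mice. Haptoglobin, from Hp, stood at 3.87, 242, 30.6, 65.4 and 8.17 TPM in the CAC and 54.9, 20.02, 14.4, 6.81 and 44.7 TPM in the Con mice, so that replicates 2 and 4 were above every Con mouse and replicates 1 and 5 below most. Without CAC replicate 2 its log2 fold change went from 0.36 to -0.39. Serum amyloid A1, from Saa1, was at 6.01 and 14.2 TPM in CAC replicates 2 and 4 and at or below 0.603 TPM in the other 8 mice, and its sequence is close to that of Saa2. Orm1, for orosomucoid, was lower in the CAC mice on average, at 1.88 to 5.40 against 4.69 to 36.2 TPM. Ceruloplasmin, from Cp, ranged over 10.4 to 20.8 and 8.21 to 13.5 TPM.

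Serpina3n, which encodes a secreted inhibitor of serine proteases, had the largest positive log2 fold change among genes with an unadjusted p under 0.01. It stood at 18.1, 231, 27.5, 93.02 and 13.2 TPM in CAC replicates 1 to 5 and at 11.6, 5.29, 7.37, 9.20 and 7.59 TPM in the Con mice. Replicate 2 held over 8 times the level of replicates 1, 3 and 5, and replicate 4 over 3 times, yet all 5 were above the Con mice. Its log2 fold change was 2.30 (SE 0.70, limma adjusted p = 0.338 over 62 mice and 0.0480 over 15). Its neighbours Serpina3h and Serpina3i ranged over 1.75 to 11.6 and 0.492 to 2.80 TPM in CAC mice and over 0.518 to 2.37 and 0.175 to 0.645 TPM in Con mice. Serpina3k of the same family, chosen after its values were seen, was lower in all CAC mice, at 0.101 to 2.82 against 4.32 to 57.8 TPM (log2 fold change -2.49, limma adjusted p = 1.00 over 62 mice and 0.0654 over 15). These genes arose by duplication and share sequence, so reads may be assigned to the wrong member.

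Metallothioneins, small proteins that bind zinc and copper, showed the same order of mice. Mt2 stood at 28.6, 587, 39.9, 128 and 15.2 TPM in CAC replicates 1 to 5 and at 14.1, 13.95, 12.9, 25.2 and 27.7 TPM in the Con mice. Mt1 stood at 104, 806, 160.1, 332 and 69.8 TPM and at 66.98, 69.9, 92.6, 100.04 and 134 TPM. In both genes replicates 2, 3 and 4 were above all Con mice, with replicates 2 and 4 highest, and replicate 5 was within their range. Replicate 1 was above all Con mice for Mt2 and within their range for Mt1. Their log2 fold changes were 1.86 and 1.14, with limma adjusted p of 0.627 and 0.658 over 62 mice, and without CAC replicate 2 they were 1.08 and 0.64. The list of Serpina3 and metallothionein genes had a median of 0.37. Of its 13 genes tested 5 were higher at an unadjusted p under 0.05 (3.49% of all genes) and 0 lower. The 15-mouse fit called 1 higher (2.66% of all genes). Mt1 and Mt2 are also listed as targets of the glucocorticoid receptor.

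**Figure D2:**
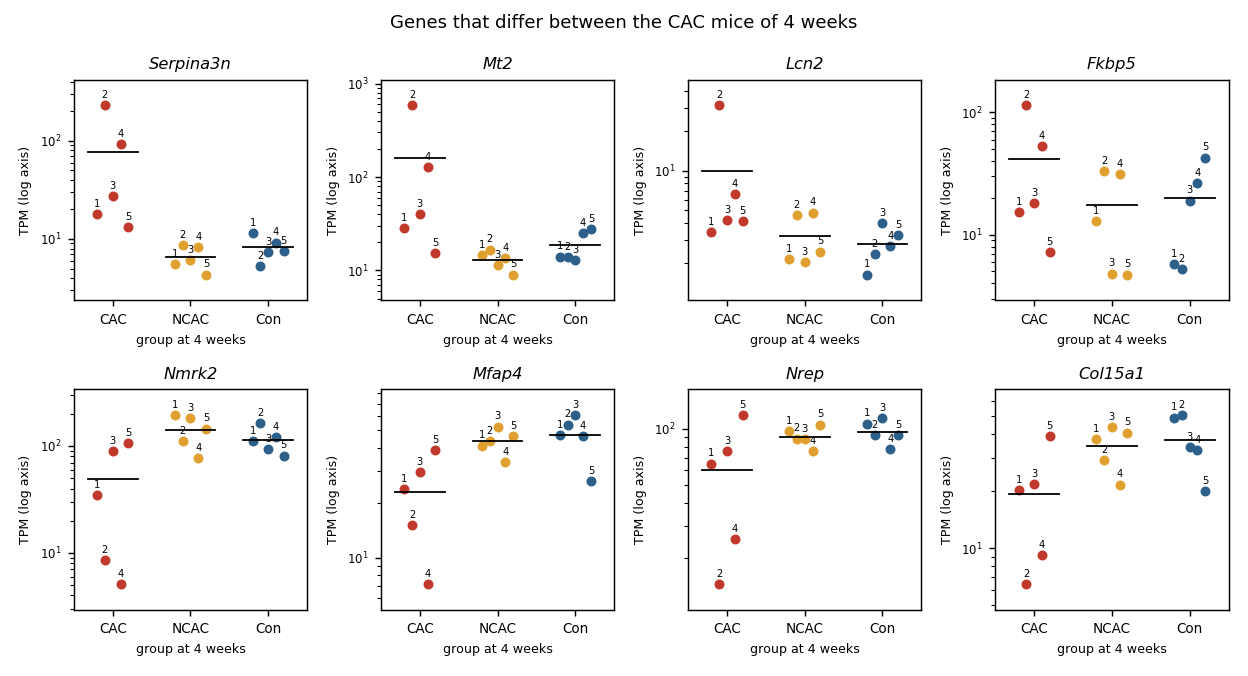
TPM on log axes for 8 genes in each CAC, NCAC and Con mouse of 4 weeks. Points are mice, numbered by replicate, black lines are group means of 5 mice, and CAC replicates 2 and 4 hold the highest levels of Serpina3n (up to 231 TPM), Mt2, Lcn2 and Fkbp5 and the lowest of Nmrk2 (down to 5.09 TPM), Mfap4, Nrep and Col15a1.

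Of 22 genes of muscle ubiquitin ligases 0 passed in the limma fit of 62 mice and 0 had an unadjusted p under 0.05. A positive log2 fold change was found in 17, with a median of 0.15 over the list. Trim63 stood at 158, 351, 149, 176 and 148 TPM in CAC replicates 1 to 5 and at 141, 158, 85.3, 81.4 and 85.6 TPM in the Con mice. Fbxo32 stood at 172, 353, 171, 145 and 137 TPM and at 152, 134, 97.3, 102 and 86.96 TPM. For both ligases CAC replicate 2 was above every other mouse, Con replicate 2 lay within the CAC range for Trim63, and Con replicate 1 did so for Fbxo32. Log2 fold changes were 0.80 (SE 0.45) for Trim63 and 0.70 (SE 0.44) for Fbxo32. Fbxo31, another F-box ligase gene, ranged over 78.1 to 251 TPM in CAC and 60.7 to 86.97 TPM in Con mice. Nedd4, chosen after its values were seen, was the 1 ligase gene of the list called in the 15-mouse fit, against 2.66% of all genes called higher. It stood at 104 to 127 against 92.1 to 103 TPM (log2 fold change 0.22, limma adjusted p = 0.0427). Trim54, the most abundant gene of the list, and Klhl40, a stabilizer of thin filament proteins, overlapped between the groups, at 262 to 353 and 196 to 315 TPM for Trim54 and 72.4 to 92.9 and 69.6 to 264 TPM for Klhl40.

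Of 28 autophagy genes 0 were called in the limma fit of 62 mice. At an unadjusted p under 0.05, 4 were higher (3.49% of all genes) and 0 lower. A positive log2 fold change was found in 24 autophagy genes in TPM as deposited, in 21 after median-ratio scaling, 19 after quantile normalization and 18 without the mitochondrially encoded genes. The median was 0.18. In 4 genes the CAC mice were all above the Con mice, against 4.91% of all genes. Map1lc3b, which encodes the LC3 protein of the autophagosome membrane, stood at 109.6, 191, 119, 149.7 and 107 TPM in CAC replicates 1 to 5 and at 83.2, 78.99, 87.9, 82.6 and 86.98 TPM in the Con mice. The groups did not overlap, and the log2 fold change was 0.65 (SE 0.19, limma adjusted p = 0.311 over 62 mice and 0.0202 over 15). Its relative Gabarap followed at 162 to 216 TPM in CAC and 135 to 149 TPM in Con mice (15-mouse limma adjusted p = 0.0270), and the lysosomal membrane gene Lamp1, chosen after its values were seen, at 517 to 645 and 439.9 to 502 TPM (0.0409). These 3 were the autophagy genes called in that fit, against 2.66% of all genes called higher. The lysosomal protease gene Ctsl ranged over 176 to 416 TPM in CAC mice, with replicate 2 highest, and over 152 to 179.7 TPM in Con mice. Bnip3l, a receptor for mitochondria in autophagy, and Pink1, the kinase that tags damaged mitochondria and the most abundant gene of the list, ranged over 43.2 to 64.7 and 684 to 785 TPM in CAC mice and 37.8 to 43.8 and 632 to 704 TPM in Con mice.

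The 31 proteasome genes had a median of 0.10, which was 0.01 when the mitochondrially encoded genes were left out of the TPM. Of these genes 26 had a positive log2 fold change, 4 were higher at an unadjusted p under 0.05 (3.49% of all genes), and 0 passed in either fit. In Psma7 and Psmd4, genes of a core and a regulatory subunit, all CAC mice were above all Con mice, at 52.4 to 79.8 against 45.1 to 52.4 TPM and 74.3 to 114 against 64.6 to 73.1 TPM. The ATPase subunit genes Psmc1 and Psmc3 overlapped between the groups, at log2 fold changes of 0.24 and 0.17. Psmb1, the most abundant, had one of 0.14.

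Among contractile genes, the embryonic and cardiac actin gene Actc1 had the largest negative log2 fold change of the sarcomere list. It stood at 1.42, 0.416, 3.93, 1.32 and 1.94 TPM in CAC replicates 1 to 5 and at 4.28, 13.9, 8.41, 14.5 and 4.18 TPM in the Con mice. Con replicates 2 and 4 were high, and CAC replicate 3 lay just below the lowest Con mouse. Actc1 had a log2 fold change of -1.80 (SE 0.48, limma adjusted p = 0.206 over 62 mice and 0.0233 over 15). The stretch-responsive Z-disc genes Csrp3 and Ankrd1 were high in the same Con mice: Csrp3 stood at 268 and 345 TPM in Con replicates 2 and 4 and at 45.1 to 82.8 TPM in the CAC mice, and Ankrd1 at 37.7 and 28.4 TPM against 4.55 to 8.27 TPM. In the other 3 Con mice Csrp3 was at 55.2, 117 and 104 TPM. Of 38 sarcomere genes 1 was higher and 4 lower at an unadjusted p under 0.05, against 3.49% and 1.87% of all genes. The 15-mouse fit called 1 higher and 2 lower, against 2.66% and 0.523% of all genes. The list median was 0.12. Myoz1, for a Z-disc protein of fast fibers, ranged over 726 to 1102 TPM in CAC and 595 to 777 TPM in Con mice.

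Of the myosin heavy chains that set the fiber type, Myh1, the fast 2X isoform, stood at 6579, 10654, 7001, 8345 and 6336 TPM in CAC replicates 1 to 5 and at 4675, 5563, 5227, 3608 and 4399 TPM in the Con mice. All CAC mice were above all Con mice (log2 fold change 0.72, limma adjusted p = 1.00 over 62 mice and 0.0242 over 15). The fast 2A isoform Myh2 ranged over 2318 to 3549 TPM in CAC and 3076 to 3458 TPM in Con mice, and the slow isoform Myh7 over 341 to 478 and 325 to 451 TPM, with overlap in both. Myh4, the fastest isoform, varied within each group, over 79.6 to 1343 and 27.98 to 465 TPM. Slow troponin I, from Tnni1, was lower in all CAC mice, at 63.8 to 94.6 against 100.4 to 111 TPM (log2 fold change -0.40, 15-mouse limma adjusted p = 0.0299). Myoglobin, the oxygen store of oxidative fibers, stood at 11490, 7239, 10290, 8189 and 10236 TPM for Mb in the CAC mice and at 14197, 12098, 13405, 12539 and 13629 TPM in the Con mice. No CAC mouse reached the lowest Con mouse, and replicates 2 and 4 were the lowest (log2 fold change -0.49, SE 0.15, limma adjusted p = 0.338 over 62 mice and 0.0240 over 15).

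Genes of calcium handling and excitation had a median of 0.19 over 21 genes, with 16 positive. The 15-mouse fit called 4 higher and 0 lower, against 2.66% of all genes higher, and in 5 the CAC mice were all above the Con mice, against 4.91% of all genes. Cacng1, a subunit gene of the muscle calcium channel, stood at 27.6, 70.3, 53.5, 76.6 and 45.1 TPM in CAC replicates 1 to 5 and at 19.8, 25.9, 28.3, 26.97 and 23.1 TPM in the Con mice. CAC replicate 1 was the 1 mouse of its group inside the Con range (log2 fold change 1.04, limma adjusted p = 0.267 over 62 mice and 0.0290 over 15). The channel gene Cacna1s, the release channel gene Ryr1 and the calcium pump gene Atp2a1 were the other 3, and Cacna1s and Ryr1 were chosen after their values were seen. Their levels were 348 to 381, 411 to 554 and 6534 to 9576 TPM in CAC mice and 274 to 316, 319.6 to 400.2 and 5410.4 to 6464 TPM in Con mice. The calcium store proteins went the other way on average: Casq1 ranged over 278 to 764 TPM in CAC mice, with replicate 2 lowest and replicate 5 within the Con range of 695 to 772 TPM, and Casq2 over 132 to 296 and 233 to 317 TPM. Trdn, which anchors them, overlapped between the groups at a log2 fold change of 0.19.

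Denervation raises a known set of genes in muscle, and its list had a median of 0.08. Of 19 genes tested 3 were higher at an unadjusted p under 0.05 (3.49% of all genes). Gadd45a, a stress gene, stood at 33.6, 42.5, 22.02, 30.2 and 17.1 TPM in CAC replicates 1 to 5 and at 12.9, 9.35, 13.9, 14.6 and 16.9 TPM in the Con mice. CAC replicate 5 lay just above the highest Con mouse (log2 fold change 1.01, SE 0.33, 15-mouse limma adjusted p = 0.0233). The transcription factor gene Runx1 was low but separated, at 1.19 to 2.18 against 0.731 to 1.12 TPM (log2 fold change 0.45, 15-mouse limma adjusted p = 0.0348). The acetylcholine receptor gene Chrna1 and the deacetylase gene Hdac4 overlapped, at log2 fold changes of 0.38 and 0.40, and the receptor anchor gene Rapsn, most abundant in the list, was at 0.10. Among 17 myogenic genes 2 were higher at an unadjusted p under 0.05 (3.49% of all genes), and the median was 0.18. The 15-mouse fit called 2 higher (2.66% of all genes). Desmin, the intermediate filament of muscle, was among the genes called in that fit, at 1746 to 2282 TPM for Des in CAC and 1185 to 1437 TPM in Con mice, and the growth factor gene Igf2 the other, at 13.6 to 18.5 and 11.3 to 14.3 TPM (15-mouse limma adjusted p = 0.0128 and 0.0299, and 1.00 for both over 62 mice). Igf2 was as high in the NCAC mice, at 15.96 to 18.4 TPM. The fiber maturation gene Myf6 and the satellite cell gene Myf5 had log2 fold changes of 0.41 and 0.39.

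Growth control showed little that passed. The myostatin and activin list of 26 genes had a median of 0.03 that turned negative without the mitochondrially encoded genes. It held 0 genes at an unadjusted p under 0.05 and 1 gene called higher in the 15-mouse fit (2.66% of all genes). That gene was the TGF-beta receptor gene Tgfbr2, at 45.9 to 83.3 TPM in CAC and 39.3 to 46.9 TPM in Con mice (limma adjusted p = 0.0410). Bmpr1b, Inhbb and Tgfb2, a receptor and 2 ligands of the family, overlapped between the groups at log2 fold changes of 0.35, 0.32 and -0.40. Outside these lists, Nog, which encodes the BMP antagonist noggin, stood at 12.4, 20.9, 12.4, 15.7 and 13.2 TPM in CAC replicates 1 to 5 and at 7.47, 3.68, 6.00, 6.38 and 5.07 TPM in the Con mice. Every CAC mouse was above every Con mouse (log2 fold change 1.25, SE 0.34, limma adjusted p = 0.241 over 62 mice and 0.00218 over 15). In the IGF1 and insulin list of 24 genes the median was 0.10 and the 15-mouse fit called 2 higher (2.66% of all genes). Eif4ebp1, the repressor of translation that mTOR switches off, ranged over 101 to 313 TPM in CAC and 71.7 to 103 TPM in Con mice, with CAC replicate 5 alone inside the Con range. The receptor gene Igf1r was at 5.90 to 11.8 against 5.03 to 5.94 TPM (15-mouse limma adjusted p = 0.0438). Igf1 was lower on average, at 3.52 to 8.75 against 4.25 to 12.2 TPM with overlap, Igfbp3, for a carrier of IGF1, was at 24.4 to 71.5 against 15.2 to 34.3 TPM, and the glucose carrier gene Slc2a4 was at 267 to 378 against 289 to 359.7 TPM.

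In sugar metabolism, Fbp2, which encodes the muscle fructose bisphosphatase of glycogen synthesis from lactate, stood at 45.6, 65.8, 66.4, 79.9 and 74.8 TPM in CAC replicates 1 to 5 and at 21.8, 32.8, 44.2, 37.02 and 24.2 TPM in the Con mice. All CAC mice were above all Con mice, with CAC replicate 1 next to Con replicate 3. Fbp2 had a log2 fold change of 1.05 (SE 0.23, limma adjusted p = 0.0784 over 62 mice and 0.0105 over 15). The glycolysis and glycogen list of 25 genes had a median of 0.08, which turned to -0.01 without the mitochondrially encoded genes. The 15-mouse fit called 2 of its genes higher (2.66% of all genes), Fbp2 and the isomerase gene Gpi1. Gpi1, chosen after its values were seen, ranged over 185 to 243 and 146 to 171 TPM in CAC and Con mice (limma adjusted p = 0.0252). The glycogen primer gene Gyg did not overlap either, at 276 to 355 against 228 to 259 TPM. Ldha, Slc2a1 and Aldoa, for lactate dehydrogenase, a glucose carrier and aldolase, overlapped at log2 fold changes of 0.25, 0.44 and 0.19.

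Fatty acid oxidation genes had a median of 0.04 over 26 genes, negative under each of the 3 other scalings, and 0 calls in either fit. Acot1, a thioesterase induced by fatty acids, was at 9.90 to 34.3 TPM in CAC mice, highest in replicates 2 and 4, and at 6.08 to 11.3 TPM in Con mice. The fatty acid carrier genes Cd36 and Fabp3 and the lipase gene Lpl ranged over 576 to 916, 3784 to 5516 and 1281 to 1775 TPM in CAC mice and 479.6 to 584, 4961 to 5664 and 1020.3 to 1283 TPM in Con mice. The 36 nuclear genes of oxidative phosphorylation had a median of 0.03, also negative under each of the 3 other scalings. The 15-mouse fit called 2 of them higher, against 2.66% of all genes. These were the cytochrome oxidase genes of muscle Cox6a2 and Cox8b, at 2606 to 3029 against 2107 to 2716 TPM and 2255 to 2489.6 against 1832 to 2233 TPM. Uqcrc2, of complex III, was lower in all CAC mice at a log2 fold change of -0.15, and Ndufa1, of complex I, overlapped at 0.16.

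Nmrk2, which encodes a kinase that makes NAD from nicotinamide riboside in muscle, had the largest negative log2 fold change of the NAD list. It stood at 34.5, 8.54, 89.4, 5.09 and 107 TPM in CAC replicates 1 to 5 and at 111, 164, 94.1, 120.5 and 81.1 TPM in the Con mice. Replicates 2 and 4 were far below every Con mouse, replicate 1 below as well, and replicates 3 and 5 were inside the Con range. Nmrk2 had a log2 fold change of -1.95 (SE 0.56, limma adjusted p = 0.289 over 62 mice and 0.0996 over 15). Naprt, which feeds NAD synthesis from nicotinic acid, was at 14.4 to 19.1 against 9.15 to 12.3 TPM with no overlap (15-mouse limma adjusted p = 0.0165). Nampt and the mitochondrial deacetylase gene Sirt3 overlapped at log2 fold changes of 0.32 and -0.26, and the list of 12 genes had a median of -0.12.

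Polyamine, iron and amino acid lists had medians of 0.04, 0.04 and 0.02 over 13, 15 and 21 genes, each negative under the other scalings. Of the polyamine genes 0 were called in either fit and 1 was lower at an unadjusted p under 0.05 (1.87% of all genes). This was Azin1, an inhibitor of antizyme, at 10.5 to 14.6 against 13.1 to 20.5 TPM. Sat1, Paox, Amd2 and Oaz1 had log2 fold changes of 0.39, 0.34, -0.21 and 0.09. For iron, transferrin from Trf was at 30.1, 53.9, 21.03, 26.5 and 42.7 TPM in CAC and 204, 134, 72.1, 58.9 and 124 TPM in Con mice. All CAC mice were below all Con mice (log2 fold change -1.68, 15-mouse limma adjusted p = 0.0202), and transferrin is also a liver protein, while liver markers were lower in the same mice. Ferritin heavy chain, from Fth1, was at 2852 to 3558 against 2331 to 2792 TPM (15-mouse limma adjusted p = 0.0290), and the reductase gene Steap4 and the transferrin receptor gene Tfrc had log2 fold changes of 0.39 and -0.68. For amino acids, Slc3a2, the heavy chain of several carriers, was at 20.9, 40.8, 25.4, 37.9 and 19.9 TPM in CAC replicates 1 to 5 and at 15.2, 16.3, 16.5, 15.9 and 17.5 TPM in Con mice. The groups did not overlap, and replicates 2 and 4 were highest (log2 fold change 0.74, 15-mouse limma adjusted p = 0.0348). Glul, for glutamine synthetase, ranged over 166 to 677 and 149.5 to 368 TPM, and Dld and Bckdhb, of branched-chain catabolism, were at log2 fold changes of -0.10 and 0.14.

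Matrix genes were lower on average. All 18 collagen genes had a negative log2 fold change, under each of the 4 scalings, with a median of -0.49. Of these 3 were lower at an unadjusted p under 0.05 in TPM as deposited, 10 after median-ratio scaling, 8 after quantile normalization and 7 without the mitochondrially encoded genes. Of all 13578 genes, 254, 485, 445 and 598 were lower under these 4 scalings in the same order. In TPM as deposited 0 collagen genes passed in either fit, and 0 had ranges without overlap. Col15a1, a collagen of the basement membrane zone, stood at 20.3, 6.43, 21.8, 9.21 and 39.2 TPM in CAC replicates 1 to 5 and at 49.1, 50.8, 34.2, 32.97 and 20.1 TPM in the Con mice. Replicates 2 and 4 were below every Con mouse, replicates 1, 3 and 5 were inside the Con range, and Con replicate 5 was the lowest of its group. For Col15a1 the log2 fold change was -1.09 (SE 0.42, limma adjusted p = 0.645). The collagen VI genes Col6a1, Col6a2 and Col6a3 had log2 fold changes of -0.73, -0.92 and -0.88, and the fibril gene Col3a1, the most abundant, stood at 74.4, 34.99, 82.7, 32.4 and 168 TPM in CAC and 137, 156, 129, 105 and 60.4 TPM in Con mice. Here too replicates 2 and 4 were lowest, and CAC replicate 5 was above every Con mouse. CAC replicate 4 also had the lowest marker sums of the 10 mice for fibro-adipogenic (1317 TPM), mesothelial (79.5 TPM) and tendon cells (76.7 TPM). In CAC replicate 2 these sums were 2243, 188 and 108 TPM, the first of them the highest of the 10 mice. The part of these cells in the collagen values was not tested.

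Among 31 other matrix genes 6 were lower and 1 higher at an unadjusted p under 0.05, against 1.87% and 3.49% of all genes. A negative log2 fold change was found in 22, 0 passed in either fit and the median was -0.31. Mfap4, a protein of elastic fibers, stood at 23.8, 15.04, 29.6, 7.14 and 38.9 TPM in CAC replicates 1 to 5 and at 47.1, 53.8, 60.9, 46.4 and 26.3 TPM in the Con mice. Nrep, a regulator of TGF-beta and collagen synthesis, stood at 64.9, 14.5, 75.7, 25.4 and 119 TPM and at 107, 92.6, 114, 77.9 and 92.8 TPM. In both genes replicates 1, 2 and 4 were below all Con mice, and replicate 5 was within or above their range. Log2 fold changes were -1.15 for Mfap4 and -1.02 for Nrep, and the latter was -0.62 without CAC replicate 2. Aspn, a small proteoglycan, was at a log2 fold change of -0.49, and Dcn, for decorin and the most abundant of the list, at 0.16. Leaving out 1 mouse moved Dcn to values from 0.02 to 0.29. Fn1, for fibronectin, stood at 265 TPM in Con replicate 5 and at 33.8, 45.7, 60.4 and 43.3 TPM in the other Con mice, against 13.6 to 39.5 TPM in the CAC mice, and the same Con replicate 5 was high in macrophage genes. The tendon gene Chad, for chondroadherin, stood at 0.869 to 6.56 TPM in CAC and 4.56 to 11.9 TPM in Con mice (log2 fold change -1.33).

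The 16 metalloprotease and inhibitor genes had a median of 0.01, of either sign by scaling, with 0 genes at an unadjusted p under 0.05 and 0 calls in either fit. Mmp15, Mmp11, Adamts1 and Mmp3 were at log2 fold changes of -0.53, 0.31, 0.45 and 0.39, and the inhibitor gene Timp2 at -0.12. Leaving out 1 mouse took Adamts1 as low as 0.28 and Timp2 as far as -0.0015. Apln, which encodes the peptide apelin that acts on vessels and muscle, stood at 2.73, 0.784, 1.36, 1.04 and 3.00 TPM in CAC replicates 1 to 5 and at 6.82, 5.98, 4.45, 3.69 and 4.05 TPM in the Con mice. All CAC mice were below all Con mice, at a log2 fold change of -1.16 (SE 0.26, limma adjusted p = 0.0800 over 62 mice and 0.0230 over 15). Prnd, for the prion-like protein doppel, stood at 0.168, 0, 0.114, 0 and 0.342 TPM and at 3.19, 2.34, 1.26, 2.31 and 0.385 TPM, with Con replicate 5 close to the CAC mice (log2 fold change -1.27, 15-mouse limma adjusted p = 0.0291).

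Heat shock genes were lower in 17 of 19, with a median of -0.21, and in at least 17 under each other scaling. Of these genes 3 were lower at an unadjusted p under 0.05 (1.87% of all genes). The 15-mouse fit called the same number lower, against 0.523% of all genes, and 0 higher. Hsph1, a large chaperone gene, stood at 14.6, 10.002, 15.5, 20.5 and 16.9 TPM in CAC replicates 1 to 5 and at 22.2, 30.9, 24.2, 23.8 and 22.1 TPM in the Con mice. Hspa4l, its relative, stood at 3.90 to 5.18 and 6.40 to 6.97 TPM. In both genes every CAC mouse was below every Con mouse, and the log2 fold changes were -0.66 and -0.47 (15-mouse limma adjusted p = 0.0440 and 0.00279). Cryab, the small heat shock protein of the Z-disc and the most abundant of the list, ranged over 1099 to 1333 TPM in CAC and 1278 to 2266 TPM in Con mice, with Con replicate 1 inside the CAC range. Hsp90aa1 was at 30.2 to 75.4 and 50.2 to 69.4 TPM.

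Antioxidant genes had a median of 0.18 over 19 genes. At an unadjusted p under 0.05, 4 were higher and 1 lower, against 3.49% and 1.87% of all genes. The 15-mouse fit called 2 higher and 1 lower, against 2.66% and 0.523% of all genes. Nqo1, a quinone reductase induced by NRF2, stood at 100.1, 79.1, 74.6, 72.8 and 81.7 TPM in CAC replicates 1 to 5 and at 61.97, 47.5, 58.9, 55.9 and 51.8 TPM in the Con mice. No CAC mouse fell within the Con range, and replicate 1 was the highest (log2 fold change 0.55, SE 0.16, limma adjusted p = 0.274 over 62 mice and 0.0424 over 15). Gpx4, which protects membrane lipids, was at 385 to 494 against 314 to 367 TPM, and the secreted peroxidase gene Gpx3 at 439 to 1646 against 300.5 to 399 TPM with CAC replicate 2 highest, both without overlap. Nfe2l2, for NRF2 itself, overlapped at a log2 fold change of 0.46. In the list of integrated and ER stress, 22 genes had a median of 0.02, negative under the other scalings, and 0 calls in either fit. Chac1, a glutathione-degrading enzyme induced by ATF4, was at 46.1, 52.6, 65.2, 24.6 and 57.9 TPM in CAC and 45.2, 19.2, 15.8, 19.1 and 23.2 TPM in Con mice, so that CAC replicate 4 and Con replicate 1 fell into the other group's range. Atf3 reached 70.3 TPM in Con replicate 2 and 16.1 TPM in CAC replicate 2, and Xbp1 and Atf4 had log2 fold changes of 0.23 and 0.22.

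Of the chemokines, Ccl8 attracts monocytes and is made by macrophages and stromal cells. It was the 1 gene of 21 without overlap between the groups, and 4.91% of all genes were higher without overlap. Ccl8 stood at 7.49, 12.1, 4.49, 11.3 and 5.73 TPM in CAC replicates 1 to 5 and at 0.968, 1.05, 1.17, 1.12 and 1.06 TPM in the Con mice. The lowest CAC mouse, replicate 3, held over 3 times the level of the highest Con mouse. Ccl8 had a log2 fold change of 2.07 (SE 0.64, limma adjusted p = 0.349 over 62 mice and 2.4e-04 over 15). The list of 21 chemokine genes had a median of -0.06, positive after quantile normalization. At an unadjusted p under 0.05, 2 were higher (3.49% of all genes) and 0 lower. Ackr1, a scavenger receptor on venules, ranged over 3.00 to 10.6 and 2.11 to 3.65 TPM, with CAC replicate 1 inside the Con range. The lymphatic chemokine gene Ccl21a and the neutrophil chemokine gene Cxcl1 overlapped at log2 fold changes of 0.68 and 0.38.

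In the complement list 19 genes had a median of -0.02. The 15-mouse fit called 2, both regulators that were higher, against 2.66% of all genes higher. Serping1, for the C1 inhibitor, was at 163, 264, 191, 166 and 203 TPM in CAC replicates 1 to 5 and at 125, 124, 139, 117 and 127 TPM in the Con mice. The membrane regulator gene Cd59a was at 64.7 to 82.3 against 54.1 to 59.9 TPM. Neither overlapped between the groups (15-mouse limma adjusted p = 0.0184 and 0.0175). C7, C3 and Cfp, for a pore component, the central component and properdin, overlapped at log2 fold changes of 0.79, -0.20 and -1.05. C7 was at 0.43 without CAC replicate 2, C3 at -0.09 without CAC replicate 4 and Cfp at -0.49 without Con replicate 5. The 30 interferon response genes had a median of 0.02, negative under 2 of 3 other scalings, 0 at an unadjusted p under 0.05 and 0 calls in either fit. Irgm1, Irf9, Stat2, Ifi27 and B2m were at log2 fold changes of 0.24, 0.39, 0.34, -0.19 and -0.30.

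Glucocorticoid targets had a median of 0.27 over 24 genes, 19 of them positive, and 0 calls in either fit. At an unadjusted p under 0.05, 3 were higher (3.49% of all genes). The 3 genes are Mt1, Mt2 and Cebpd, which other lists hold as well, and none of the genes whose values follow is among them. The spread inside each group was wide. Fkbp5, a cochaperone gene and a standard marker of receptor activity chosen after its values were seen, stood at 15.3, 114, 18.1, 52.7 and 7.18 TPM in CAC replicates 1 to 5, 5.72, 5.22, 18.96, 26.3 and 42.8 TPM in the Con mice and 12.98, 32.99, 4.80, 31.2 and 4.70 TPM in the NCAC mice. CAC replicates 2 and 4, NCAC replicates 2 and 4 and Con replicates 4 and 5 held the highest levels. Ddit4, the mTOR inhibitor gene REDD1, stood at 14.9, 85.4, 17.2, 52.1 and 12.6 TPM in CAC and 6.49, 7.88, 15.5, 45.4 and 82.4 TPM in Con mice and Arrdc2 at 11.98, 72.2, 15.8, 16.2 and 3.66 TPM and 3.27, 3.69, 13.03, 31.9 and 59.5 TPM. Con replicates 4 and 5 and CAC replicate 2 were high for both. Zbtb16, Klf15 and Lpin1 had log2 fold changes of 0.21, 0.33 and -0.49, and Pdk4, the most abundant of the list, 0.30. Without CAC replicate 2 Zbtb16 was at -0.10 and Klf15 at 0.14, and without Con replicate 5 Pdk4 was at 0.01.

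Among the clock genes, the level of Arntl differed widely between the mice of each group. Arntl, which encodes the clock activator BMAL1 and was chosen after its values were seen, stood at 2.70, 1.49, 0.790, 1.91 and 10.3 TPM in CAC replicates 1 to 5, 18.997, 18.6, 2.13, 1.37 and 1.24 TPM in the Con mice and 2.20, 0.840, 10.7, 0.869 and 18.3 TPM in the NCAC mice. It was above 10 TPM in CAC replicate 5, Con replicates 1 and 2 and NCAC replicates 3 and 5, and at or below 2.70 TPM in the other mice. Those 5 mice also held the 5 lowest levels of Fkbp5 among the 15. The labels give no time of day for the sampling. Of 20 clock genes 0 had an unadjusted p under 0.05 or passed in either fit, and the median was 0.30. Bhlhe40, Cry2 and Rora had log2 fold changes of 0.58, 0.65 and 0.40, and the output gene Tef, most abundant, 0.47. Leaving out 1 mouse took Rora as low as 0.20 and Tef as low as 0.29.

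Cell division genes were scarce: 13 of 25 passed the filter, with a median of -0.11. At an unadjusted p under 0.05, 2 were lower (1.87% of all genes) and 0 higher. Ccnd1, for cyclin D1, stood at 3.93, 1.17, 3.14, 2.83 and 6.74 TPM in CAC replicates 1 to 5 and at 7.14, 7.38, 8.28, 7.42 and 6.13 TPM in the Con mice. Replicate 5 was the 1 CAC mouse inside the Con range (log2 fold change -0.97, limma adjusted p = 0.457 over 62 mice and 0.0493 over 15). The proliferation marker Mki67 was at 0.139 to 0.423 against 0.518 to 1.40 TPM without overlap. Mcm5, Ccnd2 and Cdkn1b had log2 fold changes of -0.31, -0.37 and 0.31.

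**Figure D3:**
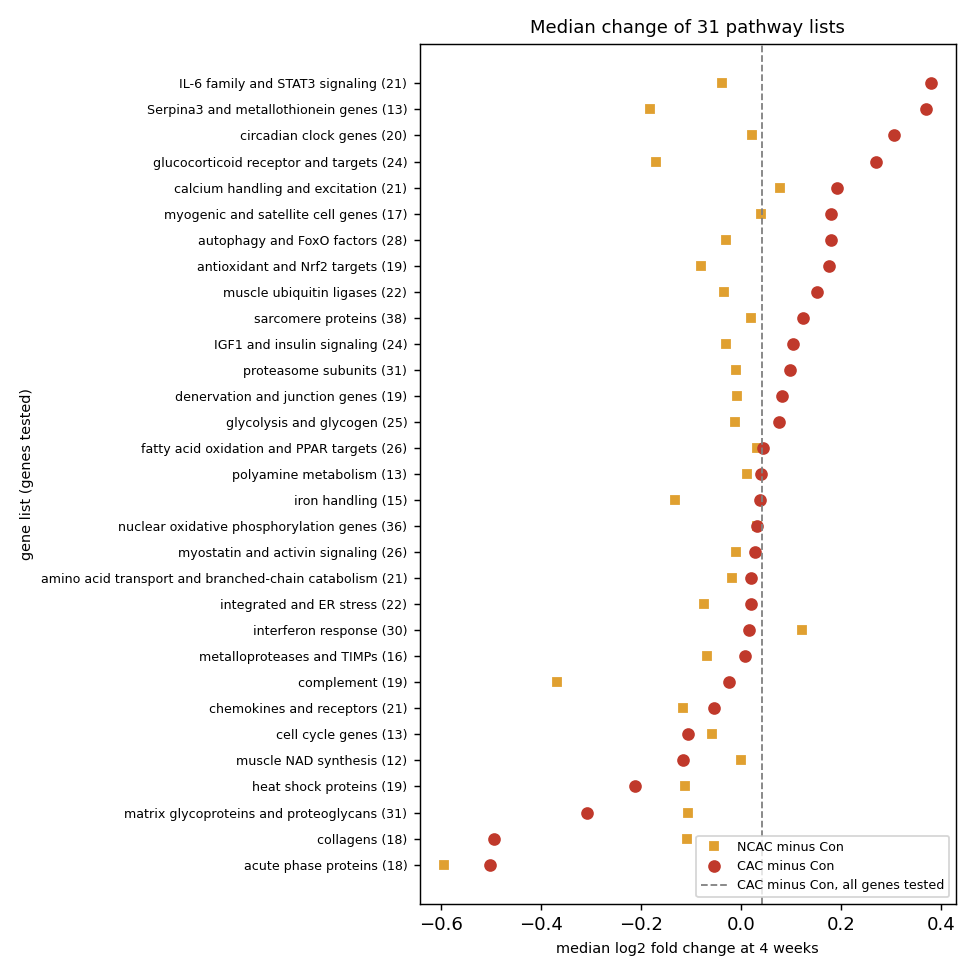
Median log2 fold change at 4 weeks of each of 31 pathway lists, with the number of genes tested in brackets. Circles are CAC minus Con, squares NCAC minus Con, which share the Con mice, and the dashed line is the median of all 13578 genes for CAC minus Con (0.04). The list of interleukin 6 and STAT3 signaling is at the top at 0.38, with collagens at -0.49 and acute phase proteins at -0.50 at the bottom.

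Other genes of the fixed rule had varied roles. Atp9a, a lipid flippase of endosomes, stood at 67.8, 87.7, 71.9, 80.01 and 58.4 TPM in CAC replicates 1 to 5 and at 22.6, 27.02, 29.8, 26.8 and 26.2 TPM in the Con mice. The CAC mice were all well above the Con mice (log2 fold change 1.42, SE 0.36, limma adjusted p = 0.176 over 62 mice and 4.3e-05 over 15). Serpinb1a, an inhibitor of neutrophil elastase, ranged over 29.8 to 58.7 against 12.6 to 22.7 TPM (log2 fold change 1.15, limma adjusted p = 0.0784 over 62 mice). The transcript 4930512H18Rik, of no known role, ranged over 1.72 to 3.21 against 0.364 to 0.868 TPM, Ndrg3 over 17.99 to 46.4 against 11.3 to 13.9 TPM, and the vascular gene Clca3a1 over 5.09 to 22.6 against 2.25 to 4.69 TPM. On the lower side, the growth factor gene Hbegf was at 3.38 to 5.66 against 5.71 to 12.4 TPM, the insulin receptor adaptor gene Grb14 at 5.96 to 18.2 against 18.3 to 26.1 TPM and the muscle reductase gene Tecrl at 10.3 to 23.2 against 23.7 to 37.4 TPM. The corepressor gene Hr, the actin regulator gene Enah, the matrix gene Papln, the crystallin gene Cryba4, the eotaxin gene Ccl24 and the Schwann cell gene S100b had log2 fold changes of -0.80, -0.78, -0.87, -0.86, -0.74 and -0.68, each without overlap between the groups.

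Of the genes that the study names, Fibcd1 was below the filter, at 0 to 0.0206 TPM in the CAC mice and 0 to 0.0308 TPM in the Con mice. Scgb3a1, a secretoglobin gene, stood at 0.820, 4.13, 3.14, 3.56 and 1.75 TPM in CAC replicates 1 to 5 and at 0.331, 0.489, 0.500, 0.960 and 0.0826 TPM in the Con mice. CAC replicate 1 was below Con replicate 4 and the other CAC mice were above all Con mice (log2 fold change 1.25, SE 0.30, limma adjusted p = 0.0854 over 62 mice and 0.0230 over 15). Of the 14 genes of this list 13 were tested, and the median was 0.24. At an unadjusted p under 0.05, 1 was higher and 1 lower, against 3.49% and 1.87% of all genes. Itga2b, Capza1 and Klhl38 had log2 fold changes of -0.04, -0.17 and 0.41, with overlap in each. Leaving out 1 mouse took these as far as 0.07, -0.11 and 0.20.

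The libraries differed between the groups in what else they held. Liver marker genes summed to 17.8, 132, 36.1, 93.9 and 46.3 TPM in CAC replicates 1 to 5 and to 2011, 212, 173, 201 and 196 TPM in the Con mice. No CAC mouse reached the lowest Con mouse, and Con replicate 1 was far above the rest. An exact permutation test gave p = 0.00794, the smallest that 5 against 5 mice allow, and an adjusted p of 0.0952 over 24 library measures. All 12 markers had a negative log2 fold change, with a median of -2.21, and 2 were lower at an unadjusted p under 0.05 (1.87% of all genes). The 15-mouse fit called 2 lower, against 0.523% of all genes. In 6 markers all CAC mice were below all Con mice, as in 1.93% of all genes. Albumin was the most abundant, at 3.16, 2.06, 0.534, 21.99 and 9.98 TPM for Alb in the CAC and 911, 29.04, 50.1, 88.2 and 59.6 TPM in the Con mice, and Apoc3 and Ttr were listed at 0 in CAC replicate 3. Acute phase genes such as Hp and Orm1, and Trf, are also expressed by liver, and the part of liver RNA in their differences was not tested. In a fit without the 7 libraries with over 1000 TPM of liver markers, 1 of them Con replicate 1, 3 genes passed higher and 0 lower.

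T and NK cell markers were low and summed to 2.44, 0.982, 1.09, 1.84 and 1.86 TPM in the CAC mice and to 3.39, 3.13, 2.89, 12 and 2.51 TPM in the Con mice, with Con replicate 4 highest (exact permutation p = 0.00794, adjusted p = 0.0952). Of 12 markers 3 were tested. At an unadjusted limma p under 0.05, 3 were lower in TPM as deposited and 1 after median-ratio scaling. After quantile normalization 0 were lower, and without the mitochondrially encoded genes 3. Of all 13578 genes, 254, 485, 445 and 598 were lower under these scalings in the same order. The most abundant marker, the granzyme gene Gzma, ranged over 0 to 1.06 and 0.563 to 6.10 TPM. Fewer cells and less RNA in each cell cannot be told apart in such values. Macrophage markers summed to 323, 363, 283, 372 and 372 TPM in the CAC mice and to 299.5, 413, 513, 384 and 1812 TPM in the Con mice, with Lyz2 at 1542 TPM in Con replicate 5. Their median over 12 genes was -0.14, with 0 at an unadjusted p under 0.05. B and plasma cell markers summed to 37.2, 12.4, 116, 1339.6 and 40.96 TPM and 1004, 356, 170.2, 74.9 and 531 TPM, mostly the immunoglobulin gene Igkc, and all 12 had a negative log2 fold change with a median of -0.98. Neutrophil, mast cell, platelet and red cell markers had medians of -0.14, -0.42, -0.09 and 0.22 over 5, 5, 4 and 5 genes, with 0 at an unadjusted p under 0.05. Their most abundant genes S100a9, Mcpt4, Pf4 and Hbb-bs overlapped between the groups.

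Muscle fiber markers summed to 74845, 81253, 76948, 81021 and 79334 TPM in CAC replicates 1 to 5 and to 69856, 72960, 73428, 67273 and 75593 TPM in the Con mice (exact permutation p = 0.0159, adjusted p = 0.127). CAC replicate 1 was the 1 mouse of its group below the highest Con mouse. Mitochondrially encoded genes took 45.6, 39.6, 43.9, 43.2 and 42.7 percent of the TPM in the CAC mice and 46.9, 48.2, 45.6, 47.2 and 43.8 percent in the Con mice (exact permutation p = 0.0397, adjusted p = 0.159). CAC replicate 2 had the lowest share. Between 17989 and 18433 genes were above 0 in the CAC and between 18363 and 18695 in the Con libraries (exact permutation p = 0.0238, adjusted p = 0.143). Of the 24 library measures 0 had an adjusted p under 0.05 and 6 an unadjusted one. The part of these differences in the expression results was not tested.

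Adipocyte markers had a median of -0.73 over 15 genes, 12 of them negative, and summed to 1280.1, 2402, 1678, 2036 and 1494 TPM in CAC and 2686, 2786, 2029, 1627 and 1758 TPM in Con mice, mostly Fabp4. Mesothelial, fibro-adipogenic, endothelial, smooth muscle, Schwann cell and tendon markers had medians of -0.22, -0.16, 0.20, 0.10, -0.12 and -0.36. None of these lists had more than 1 gene at an unadjusted p under 0.05 in a direction. Ly6a, the progenitor marker SCA-1, was at 75.6 to 137 against 35.2 to 95.3 TPM (log2 fold change 0.76), and S100b of Schwann cells at 1.10 to 2.56 against 2.63 to 4.63 TPM. The abundant genes Upk3b, Rgs5, Pmp22 and Thbs4 of these tissues overlapped between the groups. Melanoma markers were near 0: Mlana was listed at 0 to 0.180 TPM in CAC mice, Pmel at 0 to 0.0734 TPM, and Mitf, which muscle expresses too, at 5.52 to 7.92 against 6.18 to 8.81 TPM. Reads were aligned to the mouse genome, so human transcripts would be seen only where they align to it. Of 7 lung and 9 pancreas markers 0 and 1 were tested, and their most abundant genes were Ager and Cela1.

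**Figure D4:**
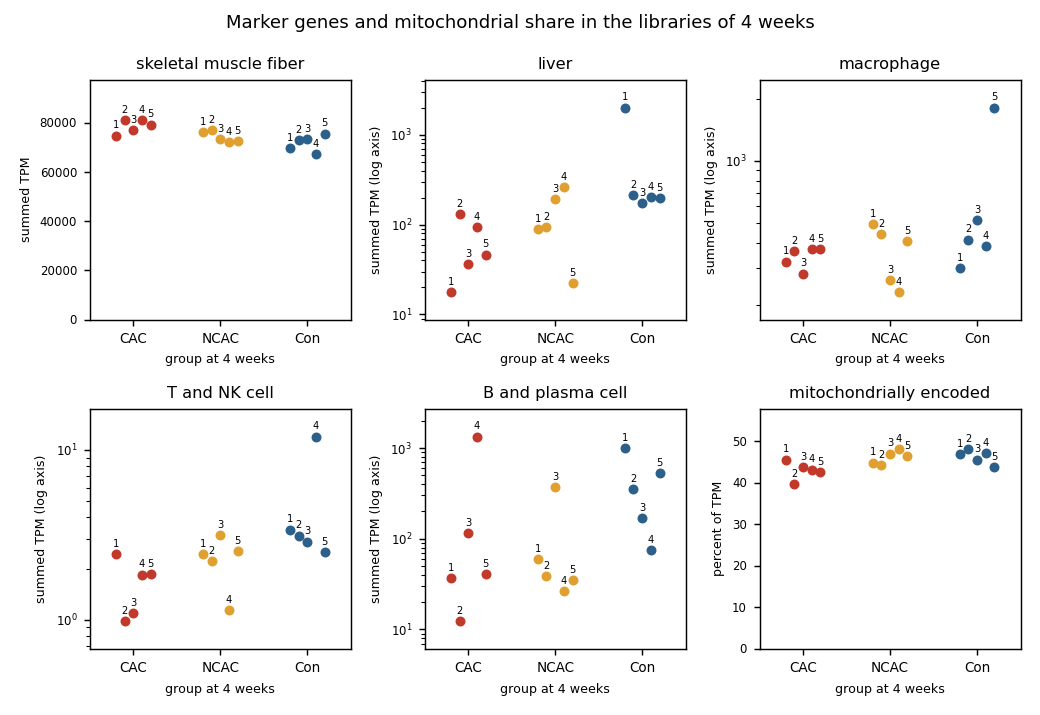
Summed TPM of marker genes and percent of TPM from mitochondrially encoded genes in each library of 4 weeks, numbered by replicate. The axes of liver, macrophage, T and NK cell, and B and plasma cell markers are logarithmic, and the others start at 0. The 5 CAC mice lie below the 5 Con mice for liver and for T and NK cell markers.

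The tumor without cachexia gave 0 genes (0%) in the limma comparison of NCAC with Con mice, and 68 genes at an unadjusted p under 0.05. It shares the Con mice with the main comparison, so the values are set side by side only. Socs3 and Apod had log2 fold changes of -0.01 and -0.26 there, Osmr -0.04, Junb 0.02, Serpina3n -0.28, Ccl8 0.15 and Dtnbos -0.13. Comparing the tumors directly, limma called 4 genes higher (0.0295%) and 0 lower (0%) in CAC than in NCAC mice, with 697 genes at an unadjusted p under 0.05. They were Apod (log2 fold change 1.95, adjusted p = 0.00118), Socs3 (2.18, 0.00284), Tmem176b (1.05, 0.0174) and 4930512H18Rik (1.12, 0.0341). Without CAC replicate 2 or replicate 4 the count was 2, and without CAC replicate 5 it was 7. Tmem176b, a cation channel gene of immune cells named here because it was called, stood at 36.3, 61.4, 36.7, 43.8 and 38.9 TPM in the CAC, 21.96, 22.96, 21.4, 14.3 and 20.9 TPM in the NCAC and 26.2, 18.6, 25.04, 18.8 and 28.7 TPM in the Con mice. The liver markers were lower in NCAC than in Con mice too, with a median log2 fold change of -1.30, while the collagen median was -0.11 and that of interleukin 6 signaling -0.04.

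At 6 weeks the same comparison in other mice called 763 genes higher and 159 lower. No gene passed a limma test of the change in the CAC minus Con difference from 4 to 6 weeks (0%), although 506 genes had an unadjusted p under 0.05, and the smallest adjusted p was 0.319. Without CAC replicate 2 of 4 weeks 5 genes passed. Socs3 was at 41.8 ± 17.1 TPM in CAC and 4.66 ± 1.16 TPM in Con mice of 6 weeks (SD, n = 5 each), a log2 fold change of 2.85 against 2.16 at 4 weeks. For Apod it was 3.33 against 1.69, for Serpina3n 5.05 against 2.30, for Mt2 5.11 against 1.86, for Lcn2 3.20 against 1.08 and for Saa1 3.93 against 1.29. At 4 weeks leaving out CAC replicate 2 took Mt2 to 1.08 and Lcn2 to 0.57, and leaving out CAC replicate 4 took Saa1 to 0.72. In the unadjusted test of the change, the limma p was 5.0e-04 for Apod, 8.7e-04 for Lcn2 and 0.203 for Socs3. The median of the acute phase list was -0.50 at 4 and 1.19 at 6 weeks, that of complement -0.02 and 0.85, and that of collagens -0.49 and -0.27. The median of the 12 liver markers was -2.21 at 4 and 0.58 at 6 weeks, when they summed to 67.1, 53.9, 99.6, 19.3 and 5629.9 TPM in CAC replicates 1 to 5 and 24.04, 58.5, 407, 16.2 and 131 TPM in the Con mice, with CAC replicate 5 far above the rest. Liver also expresses acute phase and complement genes, Saa1 among them, and its part in these differences was not tested. Fbp2 was higher at 4 weeks (1.05) and had a log2 fold change of -0.23 at 6 weeks (unadjusted limma p of the change = 2.7e-04).

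STAT proteins bind palindromes of the form TTCNNNGAA, which read the same on both strands, and the stretch before the start of Socs3 was searched for this motif because Socs3 led the comparison. Of 32851 stretches of 250 bases before RefSeq gene starts, 2306 (7.02%) held it, and of 12863 stretches of genes tested 778 (6.05%) did. Of the 26 genes higher by p and size, 18 matched by symbol with 24 stretches, of which 3 (12.5%) held the motif, those of Socs3, Scgb3a1 and 4930512H18Rik. Of 11 stretches of 9 matched genes lower by p and size, 0 held it. The stretch of Apod, printed for contrast as the other gene that rose, does not hold these letters. Both sequences are from RefSeq on build GRCm38.p6, minus strand, Socs3 at chr11:117969367-117969616 and Apod at chr16:31314809-31315058, and the capitals mark TTCNNNGAA. The match in Socs3 begins at base -154 from the start, and the GC content of the stretches is 71.6% and 36.4%. The GENCODE entry of Socs3 reaches base 117970047, beyond the RefSeq start used here. A match is a description of letters and does not show that a protein binds there.
Socs3: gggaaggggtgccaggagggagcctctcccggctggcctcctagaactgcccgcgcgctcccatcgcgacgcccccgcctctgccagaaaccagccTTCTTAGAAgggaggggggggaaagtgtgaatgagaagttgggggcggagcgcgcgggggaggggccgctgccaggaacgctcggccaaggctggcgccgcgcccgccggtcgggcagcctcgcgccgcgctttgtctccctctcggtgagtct
Apod: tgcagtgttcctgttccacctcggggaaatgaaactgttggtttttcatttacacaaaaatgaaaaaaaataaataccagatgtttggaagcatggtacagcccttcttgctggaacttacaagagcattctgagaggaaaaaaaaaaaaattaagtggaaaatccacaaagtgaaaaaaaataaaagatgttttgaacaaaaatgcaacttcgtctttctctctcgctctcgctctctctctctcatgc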

How the data were processed

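RNA of 62 diaphragms, 1 library per mouse, was sequenced by the authors in 100-bp paired-end reads. The authors aligned them to GRCm38 in CLC Genomics Workbench and deposited a normalized level (TPM) per gene. Annotation release and strand setting are not stated, and read depth is unknown from TPM. Mice were grouped by the treatment and week in the labels. Genes that reached 1 TPM in 5 or more libraries were kept, and log2(TPM + 1) was fitted in R 4.3.3 with limma 3.58.1, with a mean for each of 12 conditions, a trend and Benjamini-Hochberg adjustment. Library measures were compared by exact permutation. Figures were drawn in Python 3.11.15 with matplotlib 3.10.9. The procedure was tested on simulated data. Members and lists were chosen with earlier results of these data known. Named genes are all genes at an adjusted p under 0.05, the 12 largest log2 fold changes in each direction among genes with an unadjusted p under 0.01 and no overlap, the 4 members of each list with the smallest p and its most abundant member, the study's genes, the most abundant marker of each list and markers with an unadjusted p under 0.01, and up to 5 changes per direction from 4 to 6 weeks. Alternatives were other pseudocounts, filters, scalings, weights, libraries and a rank test, as well as leaving out each mouse.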

Additional observations from a re-analysis of the deposited data

Results flagged for a closer look

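Of 98 groups of 5 mice examined, 6 held a mouse far from the other 4, and chance alone marks about 1 in 20 groups. The liver marker sum of Con replicate 1 was 2010.7 TPM, against 173 to 212 TPM in the other Con mice. The macrophage marker sum of Con replicate 5 was 1812.4 TPM, and the T and NK cell marker sum of Con replicate 4 was 12 TPM. The B and plasma cell marker sum of CAC replicate 4 was 1339.6 TPM, against 12.4 to 116 TPM in the other CAC mice. Apod stood at 155 TPM in CAC replicate 2, the next CAC mouse being at 69.2 TPM, and Tecrl at 37.4 TPM in Con replicate 4, the next Con mouse being at 26.4 TPM.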

How the results depend on the processing

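The 2 genes that passed higher became 19 with median-ratio scaling, 38 with quantile normalization, 901 with array quality weights, 49 in the 10 mice alone, 361 in the 15 mice of 4 weeks, 9 without the mice of 2 weeks and 207 without the 4 libraries with few genes. The 1 gene lower became 2 with a pseudocount of 0.1, 4 with median-ratio scaling, 5 with quantile normalization, 2 without mitochondrially encoded genes, 168 with array weights, 71 in the 15 mice, 2 without the mice of 2 weeks, 44 without the 4 libraries and 0 without the 7 libraries rich in liver markers. A Dunn test on ranks gave 0 in each direction. By p and size, the 26 higher genes became 41 with a pseudocount of 0.1 and 9 in the Dunn test, and the 12 lower genes became 29 with that pseudocount, 24 without mitochondrially encoded genes, 38 with array weights, 52 in the 15 mice, 32 in the 10 mice and 23 without the mice of 2 weeks. The 4 genes of CAC against NCAC became 27 with median-ratio scaling, 15 without the mice of 2 weeks and 303 without the 4 libraries. The fits that leave out libraries by gene number or liver markers were chosen after seeing the data. Alternatives for CAC against NCAC, for NCAC against Con and for the library measures were not planned either. The cause of the changes in these counts was not tested.

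Leaving out 1 of the 10 mice gave 0 to 14 genes higher, 0 to 2 lower, 13 to 40 higher and 5 to 19 lower by p and size, 0 to 0 for NCAC against Con, 2 to 7 for CAC against NCAC, 0 to 5 for the change from 4 to 6 weeks and 0 to 0 library measures. Of 4224 values of named genes under other settings, 191 passed the threshold anew, 13 no longer passed it and 17 moved by more than the spread between mice. In 23 values the sign was the other one, those of Hp, Slc2a4, Oaz1, Itga2b, Arrdc2, Ddit4, Zbtb16, Hbb-bs, Pf4 and Rgs5, and 0 of these 10 genes were among the 3 called. Leaving out 1 mouse moved the log2 fold change of 66 of 192 named genes by over 1.5 times. As deviations from their group means, profiles of the CAC and Con mouse with the same replicate number correlated at r from -0.289 to 0.144. So few values cannot settle whether mice are paired by replicate number.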

Other observations

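The genes given here were chosen after their values were seen, from those with the smallest adjusted p in the limma fit of the 15 mice of 4 weeks. No gene group was tested among them. Cav3, the caveolin of muscle, stood at 95.6, 95.5, 92.2, 103 and 112 TPM in CAC replicates 1 to 5 and at 69.96, 70.2, 74.3, 73.1 and 67.7 TPM in the Con mice. The membrane scaffold gene Flot1 ranged over 47.7 to 64.7 against 31.01 to 35.2 TPM, the membrane repair gene Trim72 over 327 to 399 against 221 to 257 TPM, and the surface ADP-ribosyltransferase genes Art1 and Art5 over 442 to 539 against 294 to 359 TPM and 59.4 to 83.5 against 41.3 to 49.6 TPM. In each of these the CAC mice were all above the Con mice. The log2 fold changes were 0.48, 0.72, 0.60, 0.59 and 0.64, and limma adjusted p over 15 mice was 0.00144, 0.00144, 0.00218, 0.00218 and 0.00602. Over 62 mice it was 0.274, 0.311, 1.00, 0.492 and 0.333.

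Mcu, the channel by which mitochondria take up calcium, ranged over 16.5 to 18.2 against 11.5 to 12.7 TPM, with little spread in either group. The signaling scaffold gene Ksr1, the phosphatase gene Ptp4a3 and the transcriptional regulator gene Sbno2 ranged over 45.2 to 51.6, 378 to 639 and 10.1 to 20.7 TPM in CAC mice and 25.5 to 34.7, 253 to 303 and 6.37 to 8.03 TPM in Con mice. The cold-induced RNA-binding genes Rbm3 and Cirbp were higher in all CAC mice, at 50.7, 88.9, 37.7, 45.5 and 43.7 TPM against 31.2, 29.9, 28.8, 29.1 and 30.1 TPM for Rbm3 and 41.7 to 75.4 against 27.2 to 34.4 TPM for Cirbp. CAC replicate 2 was the highest for both. The log2 fold changes were 0.75 and 0.74, and the limma adjusted p was 0.0854 and 0.827 over 62 mice and 0.0290 and 0.0173 over 15. The labels give no body temperature.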
